A study of Mus musculus with 3 samples.

Results

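Levels of 7 haematopoietic growth factor and cytokine receptors were followed through the cells of the mouse meninges: *Csf3r*, *Csf1r*, *Csf2rb*, *Flt3*, *Kit*, *Il7r* and *Ifngr1*. All 7 were present. The members were taken by their symbols from the 27998 genes of the count table and were read in 7057 droplet barcodes that held at least 500 unique molecular identifiers (UMIs, each 1 RNA molecule read), between 174 and 4548 genes and under 8.3% of UMIs from mitochondrial genes. Levels are given as CPM, the counts of a gene as parts of 1000000 UMIs once all cells of a type in a library are summed, and the mean ± SD of a level is over the 3 libraries. Values set in threes are always in the order HC replicate 1, HC replicate 2, CSD replicate 1.

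The meninges came from male C57BL/6J mice aged 10 to 12 weeks. Home cage (HC) mice were unstressed, and chronic social defeat (CSD) mice were defeated for 14 days and picked as stress-susceptible by urine scent marking and open field behavior. The paper also names social interaction among the behaviors used to select mice. Each library was a pool of 4 mice, with HC replicate 1, HC replicate 2 and CSD replicate 1 captured in separate lanes of a single chip, from sorted live, nucleated, single cells (DAPI-, DRAQ5+). Because there was 1 CSD pool, stress and pool cannot be told apart. All p-values rest on the spread between the HC pools, which the lone CSD pool was assumed to share. The fits also drew on the spread of the other genes tested, so a p-value does not reflect a gene's own pools alone.

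Each of these receptors sits on the surface of blood-forming or immune cells and passes the signal of a secreted factor to kinases inside. *Csf1r*, *Flt3* and *Kit* encode receptors that are tyrosine kinases themselves, while *Csf3r*, *Csf2rb*, *Il7r* and *Ifngr1* encode chains that rely on Janus kinases bound to their inner part. Granulocyte colony-stimulating factor acts through *Csf3r* on neutrophils, CSF1 and IL-34 act through *Csf1r* on macrophages and microglia, and IL-7 acts through *Il7r* on developing B cells and on T cells.

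The libraries held 8814690 to 10206236 UMIs, and the libraries gave 2599, 1702 and 2756 cells. HC replicate 2 stood apart, with 59.5% of its UMIs in cells against 91.1% and 93.9%, and 24.1% of its UMIs in near-empty barcodes (at most 100 UMIs, mostly free RNA), against 7.87% and 5.48%. Pairs of libraries shared 3 to 8 cell barcodes, where 6.00 to 9.72 were expected by chance. Clusters were named from marker lists, with the suffix "-like", and gave 22 cell types, of which 16 had at least 20 cells in every library. Cells with the markers of bone marrow stages (pro-B, pre-B, myeloid progenitor and preneutrophil) were among them in every library.

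**Figure D1:**
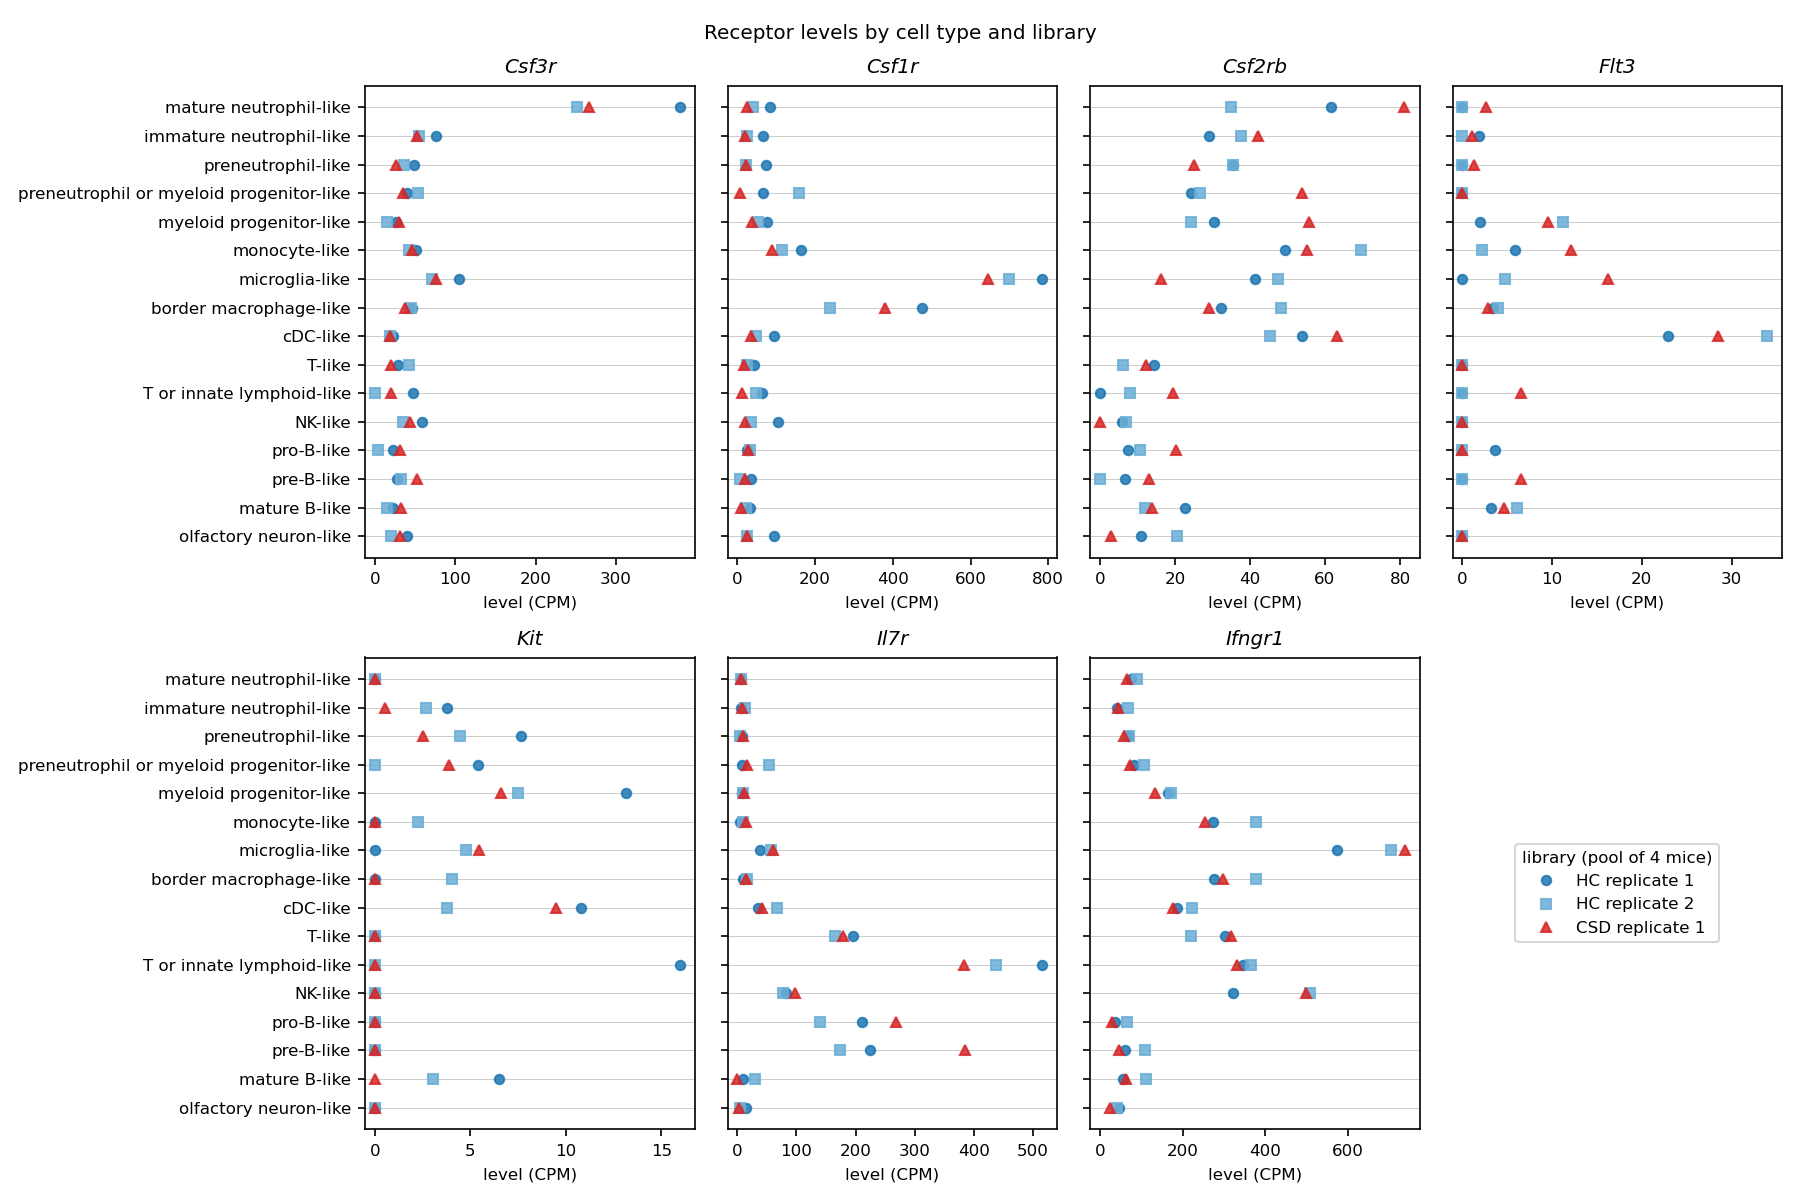
Level of each receptor (CPM, 1 panel per gene, linear axis that starts at 0) in the 16 larger cell types, with 1 point per library (a pool of 4 mice) and no error bars. The highest mean of *Csf3r* lies in mature neutrophil-like cells (251 to 379 CPM), that of *Csf1r* in microglia-like cells (645 to 784 CPM) and that of *Il7r* in T or innate lymphoid-like cells (383 to 516 CPM).

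*Csf3r* (ENSMUSG00000028859, chromosome 4, 126024550 to 126044440, plus strand, GRCm38), the receptor of granulocyte colony-stimulating factor, was highest in mature neutrophil-like cells. Its level there was 379 CPM in HC replicate 1, 251 CPM in HC replicate 2 and 266 CPM in CSD replicate 1 (299 ± 70.0, SD, n = 3 libraries, 835 UMIs). No other of the 16 cell types overlapped with that range. Microglia-like cells came next at 104, 71.4 and 75.9 CPM (83.9 ± 17.9, 72 UMIs), and immature neutrophil-like cells at 75.4, 55.2 and 52.7 CPM (61.1 ± 12.5). The ranges of these neighbours overlapped. Monocyte-like cells lay lower at 51.4, 42.6 and 46.6 CPM (46.9 ± 4.39), and pro-B-like cells had the lowest mean of the 16 types, 18.8 CPM. For scale, *Csf3r* made up 39.8, 58.3 and 76.9 CPM of the UMIs in barcodes of at most 100 UMIs, and of the 16 types only the mature neutrophil-like cells were above that level in each library.

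Within the neutrophil lineage the *Csf3r* level was higher in both mature neutrophil-like clusters than in the immature cluster of the same library. Preneutrophil-like cells, led by *Fcnb* and *Chil3*, had 48.3, 35.6 and 26.4 CPM, below the immature neutrophil-like cells of the same library each time. This cluster scored higher on another marker list than on that of preneutrophils (2.28 against 2.02). Its leading genes held 4 of the preneutrophil list and 3 of the immature neutrophil list, *Chil3*, *Camp* and *Ngp*. The mature neutrophil-like cells formed a cluster led by *Retnlg* and *Fpr1*, with 171, 151 and 133 CPM, and a cluster led by *Il1b* and *Slc7a11*, with 676, 425 and 533 CPM. The 4 clusters kept the same order in each library. The *Il1b* cluster held 3.96, 2.82 and 4.02 times the CPM of the *Retnlg* cluster. In HC replicate 2 and CSD replicate 1 the preneutrophil-like and immature clusters lay below the level of the near-empty barcodes, so no fold is given against them.

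Cell size in RNA moved with this order. The median cell of the *Il1b* cluster held 1019, 1006 and 1132 UMIs. That of the *Retnlg* cluster held 2154, 2057 and 2260.5, and that of the immature cluster 3754, 3511 and 3910. Counted per cell instead of as CPM, *Csf3r* gave 0.721, 0.445 and 0.624 UMIs in the *Il1b* cluster and 0.314, 0.214 and 0.231 in the immature cluster. The *Retnlg* cluster had 0.366, 0.331 and 0.306 UMIs per cell. The *Il1b* cluster was above it in each library, by a smaller factor than in CPM. The preneutrophil-like cells, the largest in RNA, had 0.475, 0.276 and 0.266 UMIs per cell, above the immature cluster in all 3 libraries. In HC replicate 1, but not in HC replicate 2 or CSD replicate 1, they were also above the *Retnlg* cluster. The order of preneutrophil-like below immature neutrophil-like cells therefore held in CPM and not per cell.

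With every cell thinned to 500 UMIs, *Csf3r* was detected in 31.6% (95% Clopper-Pearson interval 26.3 to 37.1), 19.9% (14.5 to 26.3) and 23.4% (19.5 to 27.7) of the cells in the *Il1b* cluster. Such intervals cover counting error only. The shares in the *Retnlg* cluster were 7.98%, 6.37% and 6.39%, and those in the immature cluster 1.57%, 1.56% and 2.29%. Mature B-like cells, which should lack this receptor, gave 2.14%, 1.61% and 1.99%, so the thinned share in the immature cluster was at background. In microglia-like cells the thinned share was 7.57%, 4.30% and 1.08%, and the last of these was also no higher than in mature B-like cells.

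**Figure D2:**
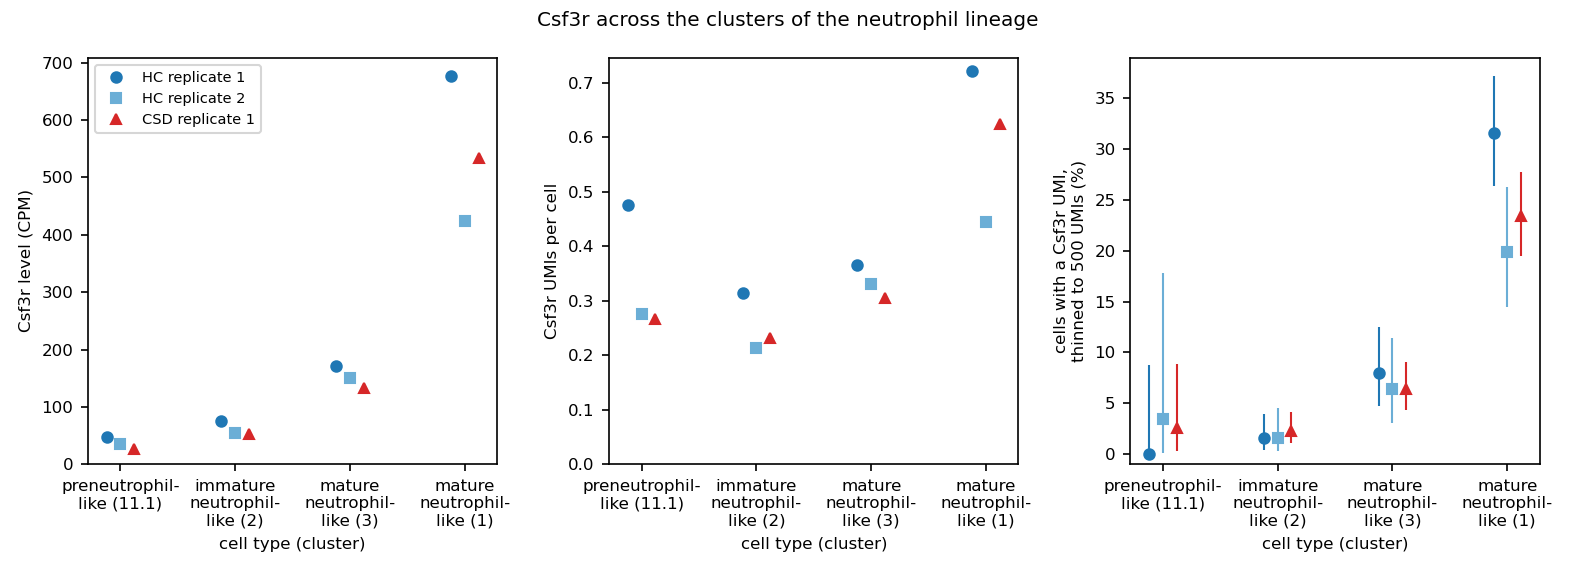
*Csf3r* in the neutrophil lineage clusters, in order from preneutrophil-like to mature (of the mature clusters, 3 was led by *Retnlg* and 1 by *Il1b*), with 1 point per library. The panels show the level in CPM, the UMIs per cell, and the percent of cells with a UMI at 500 UMIs per cell with bars of the 95% Clopper-Pearson interval, and in CPM the cluster led by *Il1b* reached 676, 425 and 533 CPM, above every other cluster of its library.

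The promoter of *Csf3r* is shown because its level differed along the neutrophil lineage. The sequence holds the 250 bases before the RefSeq start on GRCm38.p6 (chr4:126024409-126024658, plus strand), 5′ to 3′, and capitals mark matches, on either strand, to AGGAAG, a core bound by ETS factors such as PU.1, and to TTGCG, part of the sites of C/EBP factors. Both families of factors are known for their roles in granulocyte genes.
Csf3r promoter: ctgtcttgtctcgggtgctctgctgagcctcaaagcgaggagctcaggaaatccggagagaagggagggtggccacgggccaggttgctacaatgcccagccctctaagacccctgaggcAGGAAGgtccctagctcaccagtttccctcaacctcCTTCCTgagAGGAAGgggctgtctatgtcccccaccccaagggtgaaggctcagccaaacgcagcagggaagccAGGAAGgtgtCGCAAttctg
AGGAAG matched 4 times and TTGCG 1 time in this window, with no overlap between the motifs. The GENCODE gene begins upstream of the RefSeq start, so the last 109 bases of this window lie inside the gene as annotated there, and these hold 3 of the 4 AGGAAG matches and the TTGCG match. Of 32851 RefSeq promoter windows of the same length, 29.5% held AGGAAG and 14.5% held TTGCG at least once. The windows of *Kit* and *Il7r* each held 1 match to AGGAAG, that of *Ifngr1* held 1 match to TTGCG, and that of *Flt3* held neither. These matches describe the letters only, and binding was not measured.

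Ranking all genes by the likeness of their pattern over the 22 cell types to that of *Csf3r* gave *Arg2* (Pearson r = 0.85), *Fam63a* (0.81) and *Trpm2* (0.79). Here and below, r was taken across cell types on log2(mean CPM + 10) over 10773 genes, and the points share 3 libraries and their free RNA. *Arg2* encodes the mitochondrial arginase.

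*Csf1r* (ENSMUSG00000024621, chromosome 18, 61100598 to 61132149, plus strand), the receptor of CSF1 and IL-34, marked the macrophage family. Microglia-like cells had 784 CPM in HC replicate 1, 699 CPM in HC replicate 2 and 645 CPM in CSD replicate 1 (710 ± 69.9, SD, n = 3 libraries, 589 UMIs). Border macrophage-like cells followed at 476, 237 and 379 CPM (364 ± 120, 747 UMIs), and monocyte-like cells at 164, 114 and 89.8 CPM (123 ± 37.8). Taken as whole types, these 3 did not overlap in their ranges.

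The border macrophage-like cells were of 2 clusters with unlike levels and unlike shares per library. The cluster led by *Pf4*, *Lyve1* and *Ccl7* had 754, 290 and 756 CPM (314, 9 and 47 UMIs). Its range overlapped with that of microglia-like cells, and in CSD replicate 1 it lay above their 645 CPM. The cluster led by *Retnla* and *Ms4a7*, together with MHC class II genes, had 323, 230 and 296 CPM. Border macrophage-like cells made up 13.7%, 4.47% and 4.83% of the cells, so the HC pools differed in this share more than HC replicate 2 differed from CSD. At 500 UMIs per cell, *Csf1r* was seen in 29.7%, 32.3% and 34.4% of microglia-like cells, against 2.14%, 1.08% and 1.32% for mature B-like cells.

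HC replicate 1 had a higher *Csf1r* background than the other pools. Across 8 cell types not of the macrophage family (mature B, pre-B, pro-B, T, NK, olfactory neuron, mature and immature neutrophil), levels ran from 25.8 to 105 CPM in HC replicate 1, from 6.40 to 40.4 CPM in HC replicate 2 and from 9.21 to 27.2 CPM in CSD replicate 1. Their medians were 54.2, 25.6 and 19.5 CPM. Barcodes of at most 100 UMIs held 186, 55.5 and 89.4 CPM. Patterns most like that of *Csf1r* were those of *Cx3cr1* (r = 0.96), the fractalkine receptor of microglia and monocytes, *Fcgr1* (0.94), a high-affinity receptor for IgG, and *C1qb* (0.92), a chain of complement C1q.

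*Csf2rb* (ENSMUSG00000071713, chromosome 15, 78325752 to 78353847, plus strand) encodes the common beta chain shared by the receptors of GM-CSF, IL-3 and IL-5. The set named mast cell or basophil-like, 37 cells led by the basophil genes *Prss34* and *Mcpt8*, had 161, 208 and 214 CPM (194 ± 29.1, SD, n = 3 libraries, 31 UMIs). Every one of these values was above all other named types in its library. Among the 16 larger types *Csf2rb* was spread over several myeloid types. The highest means were 59.2 ± 23.2 CPM in mature neutrophil-like, 58.0 CPM in monocyte-like and 54.2 CPM in cDC-like cells (conventional dendritic cells). Other myeloid types had lower means, from 36.8 CPM in myeloid progenitor-like to 32.1 CPM in preneutrophil-like cells. Among them, microglia-like cells had 41.3, 47.6 and 16.3 CPM. No pair of neighbours among the top 8 was separate in range. Lymphoid cells were lower, at most 16.2 CPM on average, with 4.30 CPM in NK-like cells, and barcodes of at most 100 UMIs held 32.1, 18.8 and 30.4 CPM.

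The paralog *Csf2rb2* (chromosome 15, 78282507 to 78305721, minus strand), which encodes the beta chain specific to IL-3 in mice, gave 74 UMIs in all. Its highest mean was in pDC-like cells (plasmacytoid dendritic cells) at 20.8 CPM from 7 UMIs. Of all stretches of 50 bases in *Csf2rb*, 17.1% also occur in *Csf2rb2*, and 12.6% among those in the last 500 bases, where 3′ libraries read. UMIs of the pair are therefore uncertain in their split. *Csf2rb* was most alike in pattern to *Alox5ap* (r = 0.86), *Gng12* (0.85) and *Fes* (0.83). *Alox5ap* encodes a protein needed to make leukotrienes, and *Fes* a tyrosine kinase of myeloid cells.

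*Flt3* (ENSMUSG00000042817, chromosome 5, 147330741 to 147400489, minus strand), a kinase receptor needed for dendritic cell development, was rare. Of its 104 UMIs, 35 were in cDC-like cells, at 22.9 CPM in HC replicate 1, 33.9 CPM in HC replicate 2 and 28.5 CPM in CSD replicate 1 (28.4 ± 5.49, SD, n = 3 libraries). The pDC-like cells had 33.9, 0 and 52.5 CPM from 11 UMIs in all, and myeloid progenitor-like cells 2.02, 11.2 and 9.54 CPM from 21 UMIs. The cDC-like range was separate from that of every other of the 16 types. In 9 of the 22 cell types no UMI was read, among them T-like cells, for which 0 UMIs allow a level of up to 4.37 CPM. The closest patterns were those of *Clec9a* (r = 0.89), a lectin of cross-presenting dendritic cells, *Kmo* (0.86) and *Tnni2* (0.85).

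*Kit* (ENSMUSG00000005672, chromosome 5, 75574916 to 75656722, plus strand), the receptor of stem cell factor, was rarer still, with 70 UMIs. Myeloid progenitor-like cells held 26 of them, at 13.1, 7.48 and 6.60 CPM (9.08 ± 3.55, SD, n = 3 libraries), and cDC-like cells 12, at 10.8, 3.77 and 9.49 CPM. These ranges overlapped. T or innate lymphoid-like cells had 3 UMIs, all in HC replicate 1 (15.9 CPM). Mature neutrophil-like cells had 0 UMIs in 1731 cells, which allows up to 1.06 CPM and a share of up to 0.173% of cells with a UMI. The mast cell or basophil-like set also had 0 UMIs. At its 159562 UMIs that allows a level of up to 18.8 CPM, so *Kit* was not detected, and levels below that limit cannot be told from 0 at this depth. The most similar patterns, *Itgb4*, *Ces1d* (both r = 0.85) and *Aldh6a1* (0.84), rest on 4 *Kit* UMIs in glia-like cells.

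*Il7r* (ENSMUSG00000003882, chromosome 15, 9505788 to 9530176, minus strand), the IL-7 receptor alpha chain, was confined to no single lymphoid type. T or innate lymphoid-like cells, led by *Reg3g*, *Cd163l1* and *Cxcr6*, had 516 CPM in HC replicate 1, 438 CPM in HC replicate 2 and 383 CPM in CSD replicate 1 (446 ± 66.6, SD, n = 3 libraries). Pre-B-like cells had 224, 173 and 385 CPM (261 ± 111), pro-B-like cells 210, 140 and 269 CPM (206 ± 64.5) and T-like cells 195, 164 and 179 CPM (180 ± 15.3). Each of these types overlapped with the next in the order.

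Down the B lineage *Il7r* was low again in mature B-like cells, at 9.76, 30.4 and 0 CPM, below the pre-B-like cells of the same library each time. NK-like cells lay between, at 81.8, 77.8 and 96.8 CPM (85.5 ± 10.1), separate in range from the T-like cells above. The pDC-like cells gave 153, 115 and 90.0 CPM from 37 UMIs. Mature neutrophil-like cells were at 5.50 to 6.60 CPM. At 500 UMIs per cell, *Il7r* was found in 32.9%, 22.4% and 17.6% of T or innate lymphoid-like cells, against 0.535%, 1.08% and 0% for mature B-like cells. Patterns closest to *Il7r* were those of *Elf1* (r = 0.81), an ETS factor of lymphocytes, *Ptprcap* (0.80), a partner of CD45, and *Arid5a* (0.78).

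*Ifngr1* (ENSMUSG00000020009, chromosome 10, 19591949 to 19610229, plus strand), the ligand-binding chain of the interferon gamma receptor, was read in all 16 types. Microglia-like cells were highest, at 573, 704 and 738 CPM (672 ± 87.1, SD, n = 3 libraries). NK-like cells (321, 509 and 499 CPM), T or innate lymphoid-like cells (345, 365 and 331 CPM), border macrophage-like cells (276, 378 and 298 CPM) and monocyte-like cells (275, 379 and 254 CPM) followed, with ranges that overlapped from each to the next. The microglia-like range did not overlap with any of these.

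Neutrophils were at the low end for *Ifngr1*. Mature neutrophil-like cells had 74.5, 89.9 and 66.6 CPM and immature ones 40.5, 67.3 and 44.9 CPM, below the 137, 198 and 145 CPM of the barcodes with at most 100 UMIs in each library. Olfactory neuron-like cells had the lowest mean, 37.6 CPM. Genes with the most similar pattern were *Tpst2* (r = 0.82), *Lpar6* (0.79) and *Tnfrsf1b* (0.79), the last a receptor of tumor necrosis factor.

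The ligands fell into some that were nearly absent among the captured cells and others that were read in a few types. *Csf3* gave 3 UMIs and *Il7* 7 UMIs over all cells, and *Csf2*, *Il3* and *Il5* gave 0. *Ifng*, with 284 UMIs in all, had its highest level in NK-like cells (216, 177 and 194 CPM, 196 ± 19.7, 102 UMIs), and its mean in T-like cells was 91.3 CPM (62 UMIs). *Flt3l*, with 235 UMIs in all, was at 50.5 ± 7.46 CPM in NK-like, 48.0 ± 20.8 CPM in T or innate lymphoid-like and 46.5 ± 9.05 CPM in T-like cells, with overlapping ranges. *Csf1* was highest in the basophil-gene set (95.6 ± 36.4 CPM, 15 UMIs), *Il34* in glia-like and fibroblast-like cells (52.5 CPM from 6 UMIs and 52.0 CPM from 33 UMIs), and *Kitl* in endothelial-like cells (93.7 CPM from 7 UMIs). *Tslp*, whose receptor shares the IL-7 receptor alpha chain, was highest in border macrophage-like cells at 40.9, 4.02 and 11.7 CPM.

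Partner chains shared their highest type with the member in some cases and not in others. *Csf2ra*, the GM-CSF receptor alpha chain, had its highest means in monocyte-like (62.5 CPM) and myeloid progenitor-like cells (61.9 ± 3.43 CPM). *Il3ra*, the IL-3 receptor alpha chain, was highest in the basophil-gene set (178 ± 45.6 CPM), where *Csf2rb* was also highest, and *Il5ra* gave 5 UMIs in all. *Il2rg*, the common gamma chain that pairs with the IL-7 receptor alpha chain, was highest in T or innate lymphoid-like cells at 250, 244 and 266 CPM (253 ± 11.6). *Crlf2*, the other chain of the TSLP receptor, was highest in the basophil-gene set (334 ± 103 CPM), where *Il7r* gave 5 UMIs, and next in border macrophage-like cells (177 CPM), where *Il7r* was at 13.6 CPM on average. *Ifngr2*, the second chain of the interferon gamma receptor, was highest in microglia-like cells (121, 190 and 114 CPM).

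CSD was compared with HC in each cell type by edgeR's quasi-likelihood test on UMIs summed per library, among genes seen in over 15% of the cells of the type, with adjustment over all genes tested. A member passed this filter in 15 cell types, giving 37 pairs of receptor and cell type, and 0 of 37 passed the threshold of adjusted p = 0.05. At an unadjusted p under 0.05 there were 6 pairs by edgeR and 1 by DESeq2, which also called 0 after adjustment. Among all genes edgeR put 272 of 2988 at that level in monocyte-like and 36 of 1316 in pre-B-like cells. It put 200 of 5125 there in myeloid progenitor-like, 244 of 3703 in preneutrophil-like and 140 of 3611 in preneutrophil or myeloid progenitor-like cells. All 6 pairs lay in these cell types. DESeq2 put 14 of 3611 genes at that level in the type of its 1 pair, preneutrophil or myeloid progenitor-like cells. *Flt3* and *Kit* passed the filter in no cell type. Over all genes tested, edgeR called 0.223% in mature neutrophil-like, 0.056% in immature neutrophil-like, 1.34% in monocyte-like, 0.0195% in myeloid progenitor-like, 0.187% in NK-like, 0.279% in T or innate lymphoid-like, 0.0327% in pro-B-like and 1.03% in preneutrophil-like cells, 0.0277% in preneutrophil or myeloid progenitor-like cells, and 0% in border macrophage-like, microglia-like, pre-B-like, T-like, cDC-like and olfactory neuron-like cells. With so few genes called in any type, the 0 of the receptors is near the background.

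**Figure D3:**
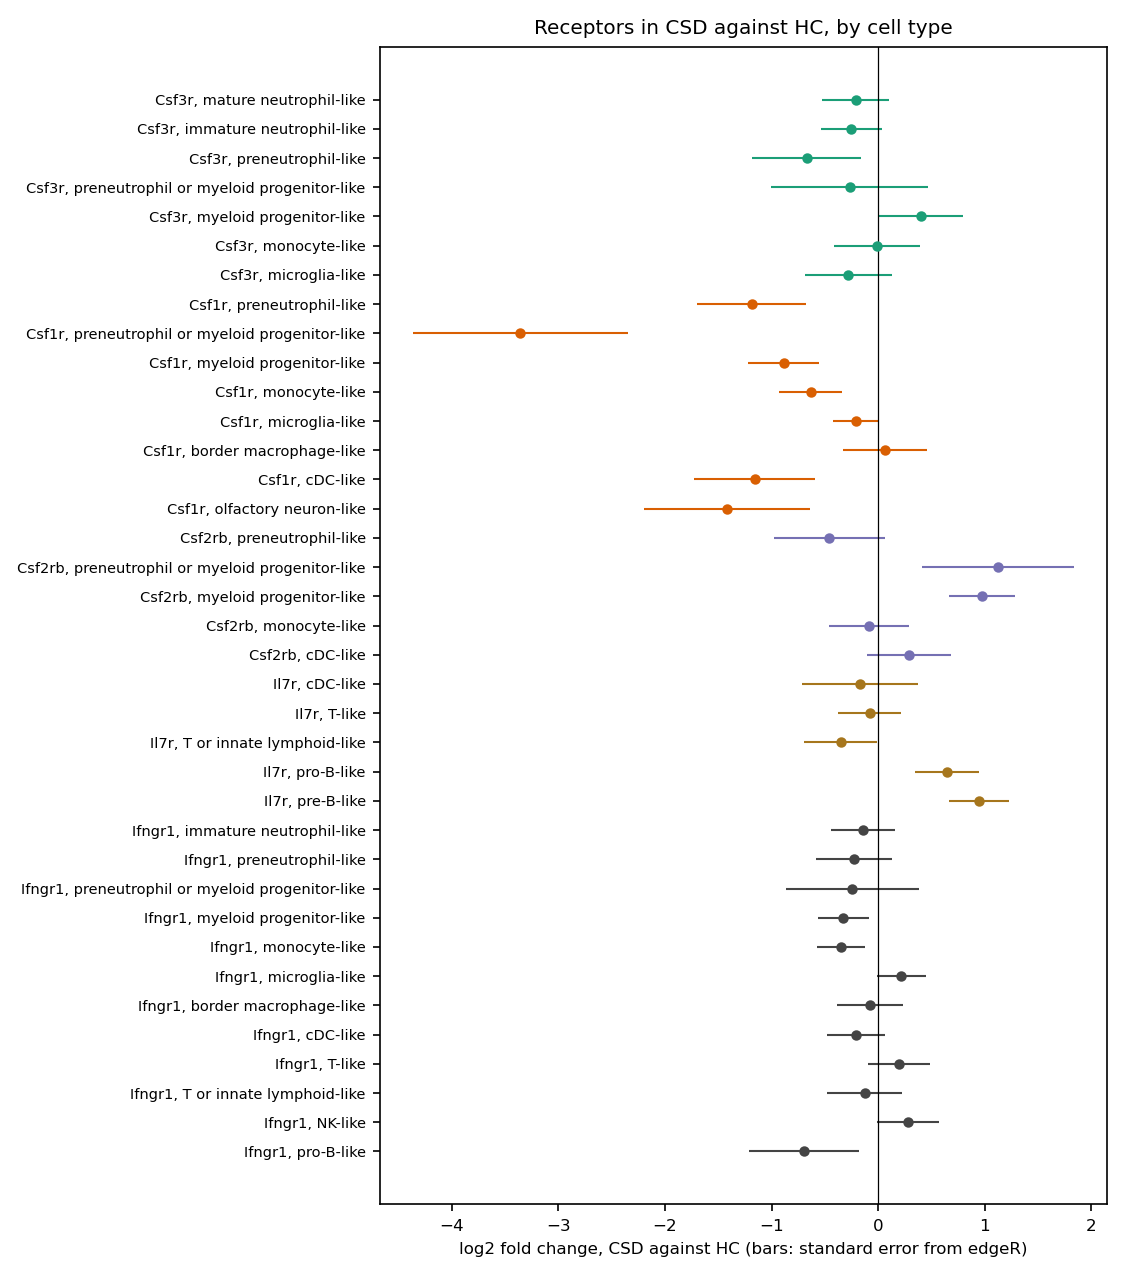
Log2 fold change of CSD against HC for the 37 tested pairs of receptor and cell type. Bars are 1 SE, derived from the edgeR fold change and its F statistic. None passed the threshold, and the lowest value, -3.36 for *Csf1r* in preneutrophil or myeloid progenitor-like cells, has the widest bar (SE 1.01).

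*Csf3r* in mature neutrophil-like cells gave a log2 fold change of -0.21 (SE 0.31, adjusted p = 0.745, edgeR), with the CSD level of 266 CPM between those of the HC pools, 379 and 251 CPM. In immature neutrophil-like cells it was -0.25 (SE 0.29, adjusted p = 0.782, edgeR), and in both pooled -0.17 (SE 0.32, adjusted p = 0.807, edgeR). The sign rests on HC replicate 1: without it the values were 0.18, 0.08 and 0.21. In the pooled cells edgeR called 0% of 1182 genes, with 133 at an unadjusted p under 0.05, and DESeq2 called 11 genes. The difference between neutrophil-like and monocyte-like cells in their *Csf3r* change was -0.14 (SE 0.34, adjusted p = 0.869, edgeR interaction test), where 1.07% of genes were called.

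*Csf1r* was lower in CSD than the HC mean in 7 of the 8 cell types tested, none of them past the threshold. Among the 7 were olfactory neuron-like cells (log2 fold change -1.42, SE 0.78, adjusted p = 0.971, edgeR), a background type above. Median log2 fold changes over all genes tested in the 8 types ran from -0.02 (preneutrophil-like) to 0.01 (preneutrophil or myeloid progenitor-like). Monocyte-like cells had 164 and 114 CPM in the HC pools and 89.8 CPM in CSD, a log2 fold change of -0.63 (SE 0.29, adjusted p = 0.494, edgeR). Myeloid progenitor-like cells had 76.8 and 54.2 CPM against 36.7 CPM (-0.89, SE 0.33, adjusted p = 0.999, edgeR), and cDC-like cells 93.1 and 49.0 CPM against 34.8 CPM (-1.16, SE 0.57, adjusted p = 0.983, edgeR). In these types CSD was below both HC pools, and HC replicate 1 was the highest. The myeloid progenitor-like and cDC-like levels lay below those of the barcodes with at most 100 UMIs in each library (186, 55.5 and 89.4 CPM). In preneutrophil-like cells (-1.19, SE 0.51, adjusted p = 0.548, edgeR) the CSD level lay above that of HC replicate 2 after TMM scaling.

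The higher *Csf1r* background of HC replicate 1, given above, moves with these values, and its part in them was not tested. Without HC replicate 1 the log2 fold changes were -0.30 in monocyte-like, -0.51 in myeloid progenitor-like, -0.47 in cDC-like and 0.11 in preneutrophil-like cells, and without HC replicate 2 they were -0.89, -1.11, -1.43 and -1.65. The largest change, -3.36 (SE 1.01, adjusted p = 0.204, edgeR), was in the 79 preneutrophil or myeloid progenitor-like cells, a set that scored alike on both marker lists, and came from 25, 6 and 2 UMIs. The cells of HC replicate 2 in that set had a median of 650 UMIs. In microglia-like cells, the cell type with the highest mean, the change was -0.21 (SE 0.22, adjusted p = 0.958, edgeR). In border macrophage-like cells it was 0.06 (SE 0.39, adjusted p = 1.00, edgeR), and 0.72 without HC replicate 1. The change in border macrophage-like minus that in microglia-like cells was 0.25 (SE 0.34, adjusted p = 0.998, edgeR interaction test), and this test called 0% of 1571 genes, with 52 at an unadjusted p under 0.05.

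*Csf2rb* was higher in CSD in myeloid progenitor-like cells, at 55.8 CPM against 30.3 and 24.3 CPM in the HC pools (76 UMIs against 30 and 13). The log2 fold change was 0.98 (SE 0.31, adjusted p = 0.820, edgeR), so the gap from both HC pools did not pass the threshold. Leaving out HC replicate 1 gave 1.23, and leaving out HC replicate 2 gave 0.82. In mature neutrophil-like cells *Csf2rb* had 61.7 and 34.9 CPM in HC and 81.2 CPM in CSD, but it was seen in 10.4% of the cells and so fell below the filter. With no filter on the share of cells it gave 1.02 (SE 0.28, adjusted p = 0.0279, edgeR), the 1 pair past the threshold among 102 tested in that way in single cell types. Without the filter edgeR called 1.34% of all genes in mature neutrophil-like cells and 0.311% over the single cell types. Left out in turn, HC replicate 1 and HC replicate 2 moved this value to 1.59 and 0.67, values with no test. In the pooled neutrophil-like cells without the filter, where 1.69% of genes were called, 2 of 7 receptors passed. These were *Csf2rb* at 0.84 (SE 0.24, adjusted p = 0.0293, edgeR; 43.0 and 36.5 CPM in HC, 59.4 CPM in CSD) and *Csf1r* at -1.08 (SE 0.27, adjusted p = 0.00614, edgeR; 72.9 and 31.8 CPM in HC, 21.3 CPM in CSD). The *Csf1r* levels here lay below the 186, 55.5 and 89.4 CPM of barcodes with at most 100 UMIs. Both neutrophil-like types were among those used above for the *Csf1r* background. Leaving out HC replicate 1 moved *Csf1r* to -0.24, and leaving out HC replicate 2 moved it to -1.55, while *Csf2rb* moved to 1.04 and 0.68. In monocyte-like cells the change was -0.08 and in cDC-like cells 0.29, neither past the threshold.

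*Il7r* was higher in CSD in the B lineage stages that hold it, without passing the threshold. Pre-B-like cells had 224 and 173 CPM in HC and 385 CPM in CSD, a log2 fold change of 0.94 (SE 0.28, adjusted p = 0.995, edgeR). Pro-B-like cells had 210 and 140 CPM in HC and 269 CPM in CSD, a change of 0.65 (SE 0.30, adjusted p = 0.920, edgeR). CSD lay above both HC pools in each. Leaving out HC replicate 1 moved the change in pro-B-like cells to 1.00, and leaving out HC replicate 2 moved it to 0.35. In T or innate lymphoid-like cells CSD lay below both, with a change of -0.35 (SE 0.34, adjusted p = 0.998, edgeR), and in T-like cells CSD lay between them.

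*Ifngr1* gave changes from -0.69 in pro-B-like cells (SE 0.52, adjusted p = 0.930, edgeR) to 0.28 in NK-like cells (SE 0.29, adjusted p = 0.992, edgeR). In microglia-like cells, which had the highest level, the change was 0.22 (SE 0.23, adjusted p = 0.960, edgeR). The change in border macrophage-like minus that in microglia-like cells was -0.31 (SE 0.22, adjusted p = 0.998, edgeR interaction test).

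The other genes of the pathways fared alike. From a list of 49 ligands, partner chains, kinases, STATs, feedback inhibitors and other cytokine receptors, 3 to 18 genes passed the filter in a cell type, making 137 pairs of gene and cell type. edgeR called 0 of them higher and 0 lower, with 8 at an unadjusted p under 0.05, and DESeq2 called 0, with 0 at that level. Of all genes in monocyte-like, cDC-like and NK-like cells, edgeR put 272 of 2988, 120 of 3160 and 77 of 1603 there. The counts were 151 of 3900 in olfactory neuron-like, 244 of 3703 in preneutrophil-like and 140 of 3611 in preneutrophil or myeloid progenitor-like cells. All 8 pairs lay in these types. The median log2 fold change of the list ran from -0.42 in olfactory neuron-like cells to 0.21 in cDC-like cells, beside -0.01 and -0.02 over all genes tested there.

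Over all cells of a library, receptor levels also reflect how much of the UMIs each cell type held. Mature neutrophil-like cells made up 19.8%, 20.4% and 31.5% of the cells. The *Csf3r* level over all cells was 73.4, 55.7 and 73.9 CPM, a difference of 9.38 CPM between CSD and the HC mean that is smaller than the SD of the HC pools, 12.5 CPM. The shares held fixed here and below are those of each type in the UMIs of a library's cells. They depend on RNA per cell as well as on the number of cells. With these shares held at the HC mean the difference was -4.88 CPM. With levels held at the HC mean the CSD shares alone gave 18.2 CPM. The 2 neutrophil-like types held 56.7%, 60.96% and 71.2% of all *Csf3r* UMIs.

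The other receptors differed in how far these shares entered. *Ifngr1* was at 166, 189 and 123 CPM over all cells, a difference of -54.3 CPM, of which -15.0 CPM was left at HC shares. *Csf1r* was at 161, 75.7 and 52.5 CPM, and its HC SD of 60.1 CPM was close in size to the difference of -65.7 CPM. Of that difference, -26.3 CPM was left at HC shares. *Csf2rb* was at 32.5, 31.5 and 44.8 CPM, and 7.03 of the 12.8 CPM were left at HC shares. *Il7r* was at 40.7, 47.3 and 38.4 CPM, a difference of -5.60 CPM that was 4.94 CPM at HC shares. No test was run on these values.

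**Figure D4:**
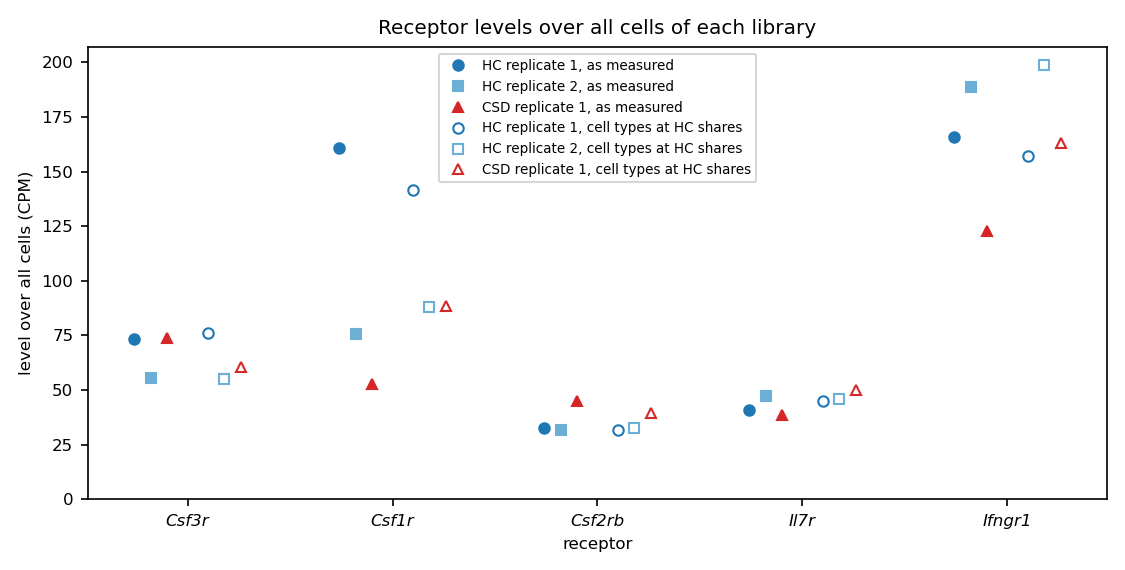
Levels of 5 receptors over all cells of each library, as measured (filled) and with cell type shares of UMIs at the HC mean (open). Values are CPM, with 1 point per library and no error bars. *Csf3r* in CSD moves from 73.9 to 60.6 CPM once shares are held, and *Ifngr1* from 123 to 163 CPM.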

How the data were processed

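Meninges of 8 HC and 4 CSD mice were measured as 3 pooled 10x 3′ v2 libraries. The values are UMI counts that the authors deposited for every barcode and gene, with no normalization, made with Cell Ranger 2 on mm10 per the labels (the submitters' processing notes). The sources used here name no annotation release. Barcodes were tied to libraries by their number, which the labels give as the group.

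The 7 members and the gene lists were chosen with earlier results of these data known. Cells were all barcodes inside the limits of 500 UMIs, 174 to 4548 genes and 8.3% mitochondrial UMIs. Scrublet in scanpy 1.11.5 marked doublets, which were kept: 1.81% and 1.47% of HC cells at its automatic threshold, and 5.52% of CSD cells as the top 5.1% of scores, since its threshold marked 0.145% there. Clustering used 3000 variable genes without the members and the pathway list (56 genes), 50 components, a mutual-nearest-neighbour correction, 20 neighbours and Leiden (leidenalg 0.10.2) at resolution 1. Clusters whose second marker score was at least 0.8 of the first were split at resolution 0.5, a step set after the clusters were seen, which gave 27 clusters. Names came from marker lists, and 83 cells stayed unnamed.

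UMIs summed per library and type were tested, two-sided, with edgeR 4.0.16 (TMM, glmQLFit, glmQLFTest) in R 4.3.3 where every library had at least 20 cells, with Benjamini-Hochberg adjustment at 0.05 and a filter of 15% of cells. Interactions carried library as a block. The SE given with an edgeR fold change is the size of that change divided by the square root of its F statistic. The scripts were tested on simulated data. DESeq2 1.42.0, RLE factors, no filter, empty-droplet subtraction, doublet removal, 1000 UMIs, 5% mitochondrial UMIs, resolution 2, no correction and leaving out each HC library were the alternatives, and the last with no filter was added after seeing the data. Named genes are the members, *Csf2rb2*, pathway genes by their highest type, and the 3 genes with the highest r to each member among genes of at least 20 CPM in a type. Gene positions came from GENCODE on GRCm38, on which 27645 of 27998 identifiers matched. A limit for 0 UMIs is 3 counts of the total.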

Additional observations from a re-analysis of the deposited data

How the results depend on the processing

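The count of receptor pairs past the threshold was 0 by edgeR and under every alternative except no filter on the share of cells, which gave 1 of 102 in single cell types and, counted apart, 2 of 7 in the pooled neutrophil-like cells. Leaving out each HC library with no filter, an alternative added after seeing the data, moved these 3 values, with *Csf1r* at -0.24 without HC replicate 1. The count of all genes called in the neutrophil-like cells moved with most choices: from 0 to 249 with no filter, 11 with DESeq2, 14 at resolution 2, 5 with at least 1000 UMIs, and 1 each with RLE factors, the empty-droplet profile subtracted, doublets removed, a mitochondrial limit of 5% and no correction. The interaction tests called 0 receptors under all alternatives run. The difference in *Csf3r* level over all cells was 22.9 CPM as the mean over cells of the share of UMIs, and 0.519 to 18.2 CPM when each HC library was left out. The highest type was kept for 7 receptors with doublets removed, and for 6 at resolution 2, where *Il7r* was highest in T-like cells because no cluster took the T or innate lymphoid name, and 6 with no correction, where *Kit* was highest in glia-like cells at 16.9 CPM. Without thinning, 5 of 7 receptors kept the type with the highest share of cells.

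Of 328 tested values of receptors under the alternatives, 308 kept their sign and side of the threshold and 20 turned sign, all of them short of the threshold. The cause was not tested. With no filter, *Csf3r* turned to 0.0642 in mature neutrophil-like, 0.0414 in monocyte-like and 0.0388 in all neutrophil-like cells, *Ifngr1* to 0.0255 in immature neutrophil-like and *Il7r* to 0.00038 in T-like cells. With the empty-droplet profile subtracted, *Ifngr1* turned to 0.18 in immature neutrophil-like cells. At resolution 2, border macrophage-like *Ifngr1* turned to 0.0829 and *Csf1r* to -0.0298, monocyte-like *Csf3r* to 0.0241 and *Csf2rb* to 0.23, myeloid progenitor-like *Csf3r* to -0.11 and T-like *Ifngr1* to -0.17. With no correction, border macrophage-like *Ifngr1* turned to 0.0348 and *Csf1r* to -0.0859, T-like *Ifngr1* to -0.13, T or innate lymphoid-like *Ifngr1* to 0.48 and *Il7r* to 0.10, and preneutrophil-like *Csf2rb* to 0.10. With doublets removed, T or innate lymphoid-like *Ifngr1* turned to 0.0029 and the *Csf3r* interaction to 0.0698. Leaving out an HC library leaves 1 against 1, which gives values with no test. Of 76 such values, 62 moved by less than the SE of the edgeR fit and 14 moved by more. Sign was not part of this count. The HC and CSD pools were of different mice, so no paired analysis was possible. Depth limits *Flt3* and *Kit*, with 104 and 70 UMIs, to levels in a few types.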
